A study of Mus musculus with 48 samples.

Results

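For each gene, the level of exonic RNA relative to intronic RNA was compared between 2 stable lines of NIH 3T3, an immortalised mouse embryonic fibroblast line whose cells keep circadian time. One line carried a hairpin against Bmal1 (shBmal1) and the other a control hairpin (shCTRL). Bmal1, which the files list under its other symbol Arntl, encodes a transcription factor of the clock. Both lines were given 50% horse serum for 2 h, and each was collected at 12 time points labelled 24 to 46 in steps of 2, read here as hours after serum. The comparison used the 24 total RNA libraries of the 48 in the study, 12 from shBmal1 and 12 from shCTRL, with 1 library per line and time point. Total RNA here is the RNA kept back from each extract when the remainder went into a pull-down of newly made RNA labelled with the uridine analogue 4sU. Because each hairpin is represented by 1 stable line, loss of Bmal1, any other effect of the hairpin and a chance difference between the lines cannot be told apart. The p-values measure the spread between single libraries around each line's time course.

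An intron is cut out of the pre-mRNA and degraded soon after it is made, whereas the exons are joined into the mature mRNA, which may last for hours. Intronic RNA therefore follows transcription closely, and exonic RNA also depends on how fast the mRNA is spliced, exported and degraded. A gene whose exons differ between 2 states by more or less than its introns is for this reason used to look for regulation after transcription. The clock protein BMAL1 acts with CLOCK as an activator of genes such as Nr1d1, Dbp and the Per genes, and the REV-ERB proteins made from Nr1d1 and Nr1d2 repress Arntl in turn.

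The measure, called the ratio below, was log2(exon RPKM + 0.1) minus log2(intron RPKM + 0.02), where RPKM is the read number per feature length and library size. RPKM were first scaled to a common median library, exons and introns separately, and exon and intron RPKM below are on that scale. The limits for entry were 1 RPKM for exons and 0.1 RPKM for introns, as means over the 24 libraries, which gave 9522 of 11313 listed genes. Of these, 9276 passed both limits in each line alone, 108 passed only through shBmal1 and 138 only through shCTRL. At the limits, Celf2 was just inside with an intron mean of 0.10005 RPKM and 4931428F04Rik with an exon mean of 1.01 RPKM, while Cep83os was just outside with an exon mean of 0.998 RPKM. A difference is shBmal1 minus shCTRL of the line means, fitted with limma beside 24-h and 12-h time terms. A gene was said to pass at a Benjamini-Hochberg adjusted p under 0.05, and was called if its difference was also at least 0.5 in size on the log2 scale.

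The shBmal1 libraries held 50977879 to 69829031 reads and the shCTRL libraries 53931845 to 76260143. Introns of the listed genes took a median of 24.5% of the reads in shBmal1 and 26.1% in shCTRL, and exons 69.3% and 68.0%. The median ratio of all genes, before scaling, had a lowest, median and highest value of 3.87, 3.94 and 4.14 over the shBmal1 libraries and 3.82, 3.90 and 4.00 over the shCTRL libraries. The highest were the 26 h library of shBmal1 and the 30 h library of shCTRL. That shCTRL library also had the lowest intron share of its line, 24.1%, and the highest exon share, 70.1%. Counts of calls with 1 time point left out are given at the end. Of 12 fibroblast markers 10 were listed, and their summed exon level was 5180 to 5949 RPKM as deposited in shBmal1 and 5768 to 6656 RPKM in shCTRL. Of 8 keratinocyte markers 1 was listed, Krt14, at 7.64 to 13.6 RPKM in shBmal1 and 2.09 to 4.32 RPKM in shCTRL. On the scaled values, exons of 7 of the 10 fibroblast markers passed lower in shBmal1 and of 2 higher, with a median difference of -0.67. Over all genes tested, exons passed lower in 32.6% and higher in 35.9%. Mean levels as deposited were 22.7 RPKM in shBmal1 and 68.6 RPKM in shCTRL for Pdgfra, a lower one. They were 2247 RPKM in shBmal1 and 1944 RPKM in shCTRL for Vim, a higher one. Of 8 muscle markers 2 were listed, Des at 1.78 RPKM in shBmal1 and 0.762 RPKM in shCTRL and Mymx at 1.11 RPKM in shBmal1 and 5.17 RPKM in shCTRL, with a sum of 2.40 to 3.68 RPKM in shBmal1 and 4.39 to 8.59 RPKM in shCTRL. Of 8 leukocyte markers 3 were listed (17.2 to 25.2 RPKM in shBmal1 and 12.8 to 19.99 in shCTRL), of 6 endothelial 1 (0.321 to 0.920 in shBmal1 and 0.234 to 0.533 in shCTRL), of 6 adipocyte 1 (2.18 to 2.86 in shBmal1 and 2.86 to 4.36 in shCTRL), and of 8 neural 0. The part of these differences in any result below was not tested, and in such bulk samples fewer cells of a type and less RNA per cell cannot be told apart.

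Arntl itself had the lowest ratio difference among the called genes whose exon and intron lengths were the same in both lines, a condition explained below. Its ratio had a lowest, median and highest value of 2.78, 3.11 and 3.24 over the 12 shBmal1 libraries, against 3.58, 4.65 and 5.02 over the 12 shCTRL libraries. The lines did not overlap, and shBmal1 was lower at 12 of 12 time points. The difference was -1.43 ± 0.060 (SE, limma adjusted p = 6.50e-13). On average over the course, it combined exons that were lower in shBmal1, by -0.92 ± 0.0823 (limma adjusted p = 1.23e-08), with introns that were higher, by 0.51 ± 0.0625 (limma adjusted p = 1.40e-06). Neither layer was shifted evenly over time. At 34 h introns stood at 0.541 RPKM in shBmal1 and 0.619 RPKM in shCTRL, and at 46 h at 0.599 and 0.128 RPKM. Exons stood at 4.71 RPKM in shBmal1 and 17.3 RPKM in shCTRL at 34 h, and at 4.14 and 3.28 RPKM at 46 h. Arntl exons averaged 3.74 ± 0.723 RPKM in shBmal1 and 9.24 ± 6.02 RPKM in shCTRL, and its introns 0.442 ± 0.0822 RPKM in shBmal1 and 0.352 ± 0.195 RPKM in shCTRL (SD, n = 12 each). These rest on 409 to 973 exon reads and 1808 to 4191 intron reads per shBmal1 library, and on 265 to 3254 exon reads and 765 to 4264 intron reads per shCTRL library. The gene lies on chromosome 7 from 113178471 to 113314126 (GRCm38.p6) and is overlapped there by the annotated gene Gm33721.

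The promoter of Arntl is shown because the REV-ERB genes, described below, encode repressors of it. Its introns were higher in shBmal1 on average, and any part of this sequence in that was not tested. REV-ERB and ROR proteins bind the core AGGTCA. It was searched on both strands from 250 bases before to 50 bases after each annotated start in the RefSeq promoter table of GRCm38.p6, where 16.3% of 32851 promoters hold it. One copy stood 31 bases after the Arntl start at 113207511, which lies inside the gene's outermost annotated span given above and is not its first base. It is shown in capitals at chr7:113207529-113207558 on the plus strand. A match is a description of the letters and not a shown binding site.
Arntl: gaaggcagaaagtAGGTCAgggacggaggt

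**Figure D1:**
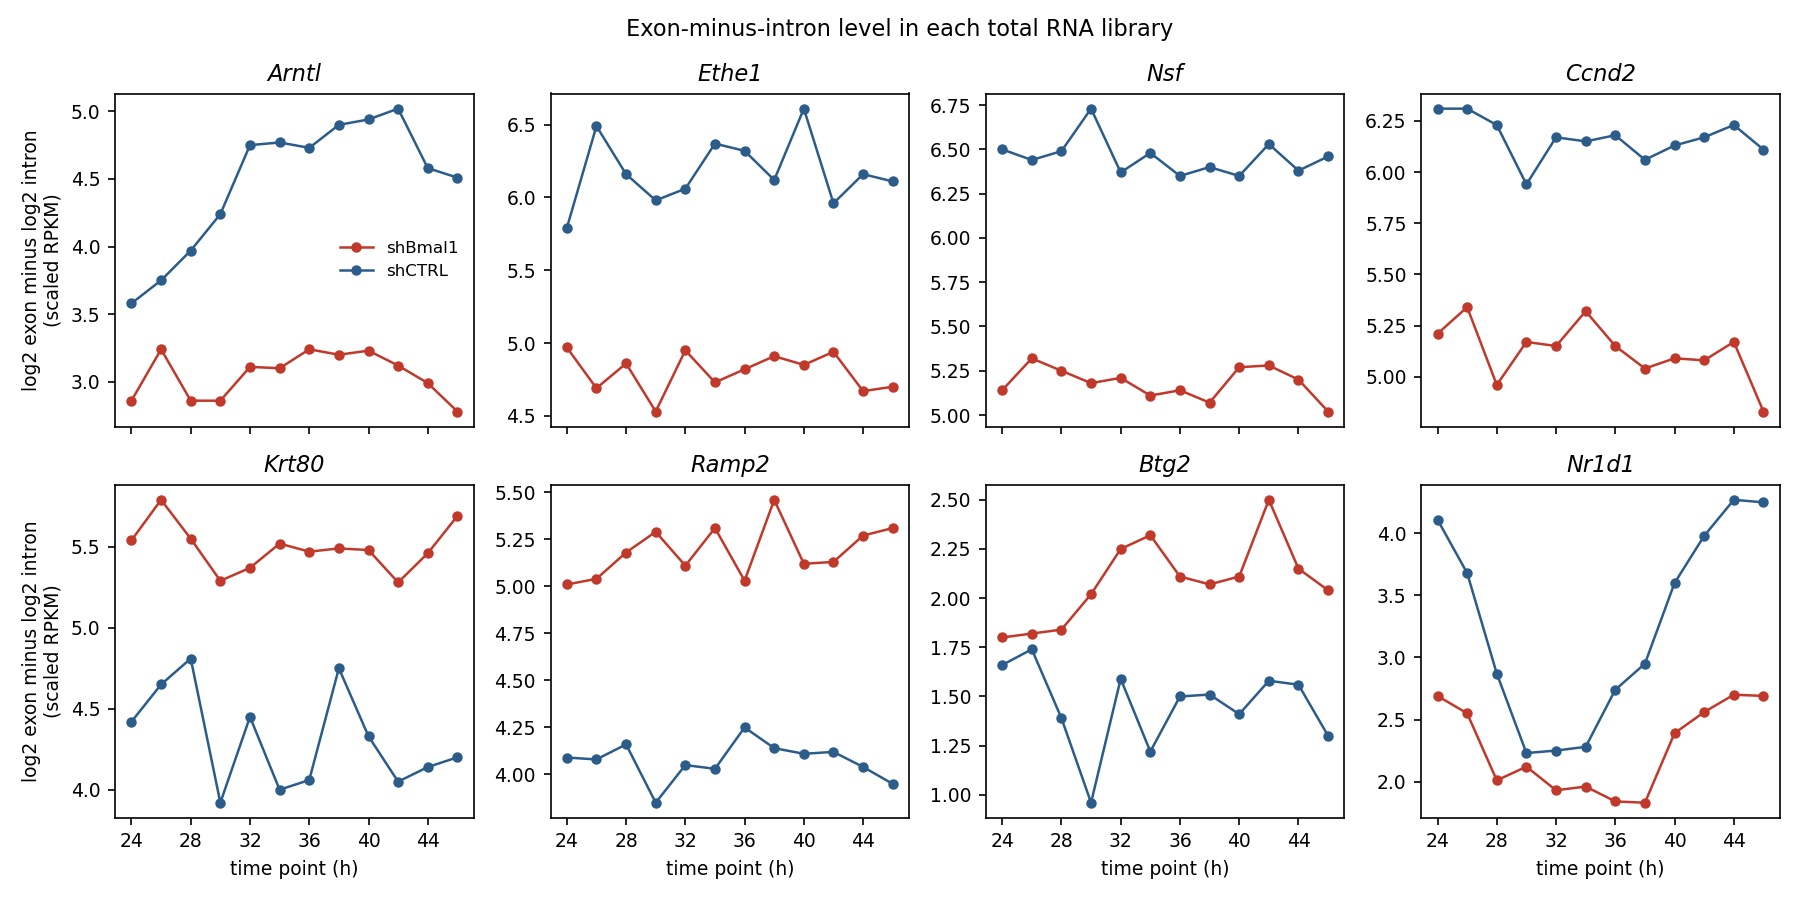
The log2 exon minus log2 intron ratio of 8 genes (vertical axes, scaled RPKM) is plotted against the time point in h, with shBmal1 in red and shCTRL in blue and 1 point per library. Arntl, Ethe1, Nsf and Ccnd2 lay lower in shBmal1 at 12 of 12 time points, Krt80, Ramp2 and Btg2 lay higher at 12 of 12, and the gap of Nr1d1 was smallest from 30 to 34 h.

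Over all 9522 genes, 153 were called higher in shBmal1 (1.61%) and 268 lower (2.81%). A gene's exon and intron lengths can be recovered from the deposited RPKM. In 940 genes a recovered length differed between the lines or was not found. Where lengths differ, the values of the lines were computed over different lengths. Recovery has errors: of 11283 genes with simulated intron values, 78 given 1 length were read as having 2. The 940 genes made up 58.8% of the higher calls and 44.4% of the lower calls, against 9.87% of all genes tested, and they are uncertain. The accounts of single genes and classes below therefore use the 8582 genes with 1 length unless a gene is said to have 2, of which 63 were called higher (0.734%) and 149 lower (1.74%). The balance of the directions depended on the scaling. On RPKM as deposited the calls were 257 higher and 189 lower over all genes, and 153 higher and 87 lower among genes with 1 length. The median ratio difference of all genes was then 0.07, against -0.03 after scaling, so differences are relative to the middle of all genes.

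Most called genes with 1 length kept their direction at every time point. The calls were made on these same libraries, so the counts by time point and of overlap describe the calls and are no check of them. Of the 63 higher genes, 43 were higher in shBmal1 at 12 of 12 time points (3.37% of all genes with 1 length), and in 25 the lines did not overlap. Of the 149 lower genes, 122 were lower at 12 of 12 time points (6.86% of all), and in 93 the lines did not overlap. Among all genes with 1 length, the lines did not overlap in 0.886% with shBmal1 above and in 2.02% with shBmal1 below. Fitted on the time points 24 to 34 h alone, 87 genes were called higher (1.01%) and 143 lower (1.67%). Fitted on 36 to 46 h alone, which shares no library with the first, 83 were called higher (0.967%) and 191 lower (2.23%). The 2 fits shared 33 higher genes, 37.9% of the early and 39.8% of the late calls, and 109 lower genes, 76.2% of the early and 57.1% of the late calls. No gene was called in opposite directions.

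**Figure D2:**
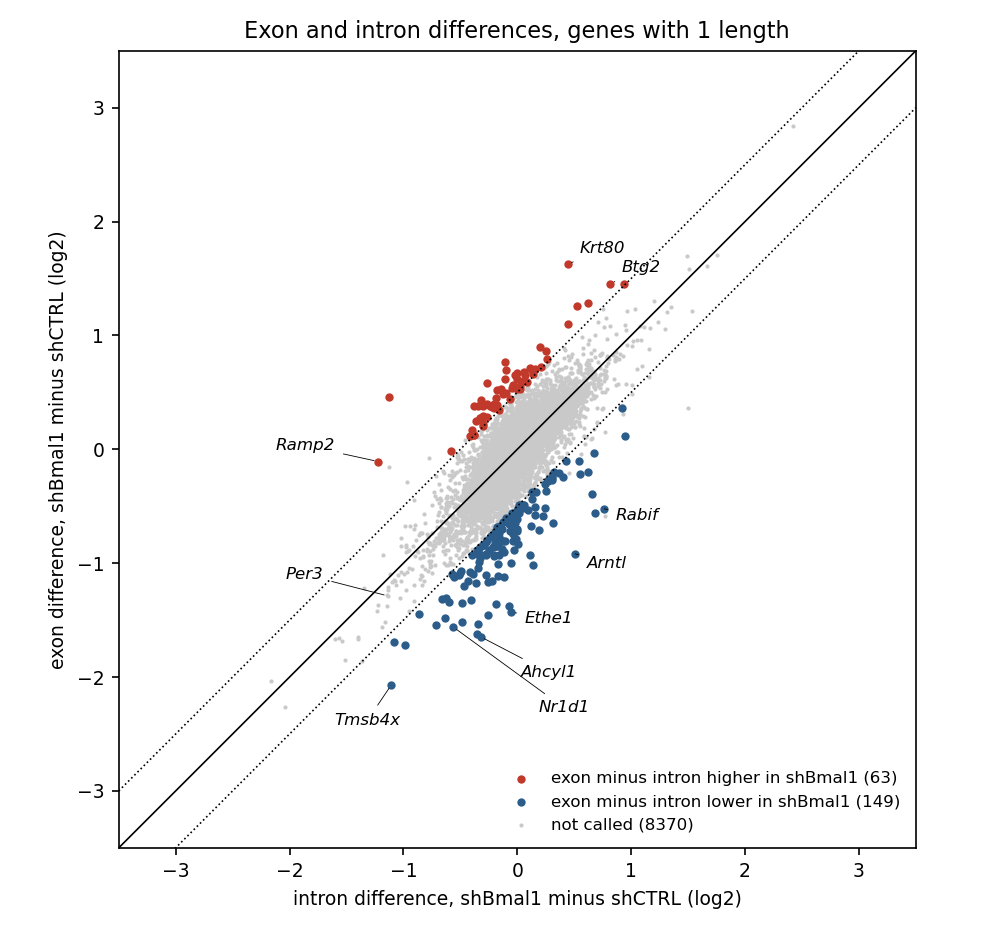
Each point is 1 of the 8582 genes with 1 length, with its intron difference on the horizontal axis and its exon difference on the vertical axis (shBmal1 minus shCTRL, log2). The solid line marks equal differences and the dotted lines a ratio difference of 0.5 either way. The 63 genes called higher (red) lie above the upper dotted line and the 149 called lower (blue) below the lower one.

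In all of the 12 genes with the lowest differences that were lower at every time point, the exons fell. The intron difference did not pass in 3 of them, the introns fell by less than the exons in 5, and they rose in 4. Ethe1, which encodes a sulfur dioxygenase of mitochondria, had ratios from 4.53 to 4.97 with a median of 4.83 in shBmal1 and from 5.79 to 6.61 with a median of 6.14 in shCTRL, without overlap. Its exons averaged 5.04 ± 0.737 RPKM in shBmal1 and 13.6 ± 0.993 RPKM in shCTRL, while its introns were 0.163 ± 0.0151 RPKM in shBmal1 and 0.172 ± 0.0318 RPKM in shCTRL (SD, n = 12 each). The ratio difference of Ethe1 was -1.38 ± 0.083 (limma adjusted p = 1.72e-10), and its intron difference of -0.05 did not pass. Mterf4, a factor of mitochondrial ribosome assembly, had the same shape, with exons of 12.4 RPKM in shBmal1 and 31.8 RPKM in shCTRL and introns of 0.897 RPKM in shBmal1 and 0.953 RPKM in shCTRL. Its ratio difference was -1.30 ± 0.0974.

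Nsf, the ATPase that takes SNARE complexes apart after membrane fusion, showed the smallest error of the group. Its ratios ran from 5.02 to 5.32 with a median of 5.19 in shBmal1 and from 6.35 to 6.73 with a median of 6.45 in shCTRL. Its exons averaged 7.17 ± 0.629 RPKM in shBmal1 and 22.2 ± 0.535 RPKM in shCTRL (SD, n = 12 each). The ratio difference was -1.27 ± 0.0445 (limma adjusted p = 3.58e-14), made of an exon difference of -1.62 and an intron difference of -0.35. Ahcyl1, whose product binds the IP3 receptor, had a ratio difference of -1.32 ± 0.059 with exons at -1.65 and introns at -0.32. Acbd5, a peroxisomal membrane protein, Pon2, a paraoxonase, and Reep3, which shapes the endoplasmic reticulum, had ratio differences of -1.19, -1.19 and -1.18, exon differences of -1.45, -1.54 and -1.36 and intron differences of -0.26, -0.34 and -0.18. In all 5 genes both layers fell and the exons fell further. Exons of Acbd5 ran from 0.651 to 1.31 RPKM in shBmal1, with a mean under the entry limit of 1 RPKM. Acbd5 thus entered only through shCTRL, the line where it is higher.

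Ccnd2, the gene of cyclin D2, combined a high exon level with a flat intron level. Its ratios ran from 4.83 to 5.34 with a median of 5.15 in shBmal1 and from 5.94 to 6.31 with a median of 6.17 in shCTRL. Exons averaged 34.2 ± 4.57 RPKM in shBmal1 and 65.1 ± 5.9 RPKM in shCTRL, and introns 0.969 ± 0.185 RPKM in shBmal1 and 0.885 ± 0.0482 RPKM in shCTRL (SD, n = 12 each). The ratio difference was -1.04 ± 0.0537 (limma adjusted p = 1.50e-11), while the intron difference of 0.11 did not pass. The gene lies on chromosome 6 from 127125162 to 127152188 and is overlapped by the annotated gene 9330179D12Rik.

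The 4 genes whose layers moved in opposite directions were Arntl, Rabif, Serpinb9b and Ddah1. Rabif, a Rab-binding chaperone also called MSS4, had introns of 1.92 ± 0.342 RPKM in shBmal1 and 1.11 ± 0.118 RPKM in shCTRL, and exons of 3.91 ± 0.386 RPKM in shBmal1 and 5.64 ± 0.232 RPKM in shCTRL (SD, n = 12 each). Its ratio difference was -1.29 ± 0.0668 (limma adjusted p = 1.63e-11), from an exon difference of -0.52 and an intron difference of 0.76. Serpinb9b, a serine protease inhibitor, had a ratio difference of -1.24 ± 0.112, exons at -0.56 and introns at 0.68. Ddah1, which degrades the nitric oxide synthase inhibitor dimethylarginine, had a ratio difference of -1.15 ± 0.0894, exons at -1.01 and introns at 0.14.

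Krt80, a keratin, had the largest positive difference among genes higher at every time point. Its ratios ran from 5.28 to 5.79 with a median of 5.49 in shBmal1 and from 3.92 to 4.81 with a median of 4.26 in shCTRL, without overlap. Exons averaged 17.4 ± 2.86 RPKM in shBmal1 and 5.56 ± 0.725 RPKM in shCTRL, and introns 0.368 ± 0.0582 RPKM in shBmal1 and 0.269 ± 0.0594 RPKM in shCTRL (SD, n = 12 each). Both layers rose, by 1.62 and 0.44, and the ratio difference was 1.18 ± 0.0795 (limma adjusted p = 9.56e-10). Krt14, a second keratin and the 1 listed keratinocyte marker, also had higher exons in shBmal1, as given above. Its exons and introns rose by 1.61 and 1.67, and its ratio difference of -0.06 did not pass.

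Ramp2, a partner of the calcitonin receptor-like receptor, differed mainly in its introns. Its exons stood at 54.5 ± 3.76 RPKM in shBmal1 and 58.7 ± 4.66 RPKM in shCTRL, while its introns were 1.48 ± 0.178 RPKM in shBmal1 and 3.48 ± 0.435 RPKM in shCTRL (SD, n = 12 each). The intron difference was -1.22 ± 0.0653 (limma adjusted p = 1.16e-11) and the exon difference -0.11 ± 0.0427 (limma adjusted p = 0.0324). Its ratios, from 5.01 to 5.46 in shBmal1 and from 3.85 to 4.25 in shCTRL, did not overlap, and differed by 1.11 ± 0.0513. The recovered intron length of 11678 bases exceeds the annotated gene, which spans chromosome 11 from 101246334 to 101248250, so the intron reads were counted over a longer transcript model than that annotation shows.

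The other genes at the top rose by less. Ak4, an adenylate kinase of mitochondria, had exons of 9.002 ± 1.26 RPKM in shBmal1 and 5.50 ± 0.556 RPKM in shCTRL (SD, n = 12 each) with introns at -0.10, and a ratio difference of 0.79 ± 0.0563. Nlk, the Nemo-like kinase, had exons at 0.44, introns at -0.32 and a ratio difference of 0.76 ± 0.0465. Fos, an AP-1 transcription factor and immediate early gene, had a ratio difference of 0.76 ± 0.119, but its introns, 1276 bases in all, held only 8 to 32 reads per shBmal1 library and 17 to 42 per shCTRL library, and the lines overlapped. E2f2, an activator of S-phase genes, had exons of 1.53 RPKM in shBmal1 and 0.577 RPKM in shCTRL, with exons at 1.26, introns at 0.53 and a ratio difference of 0.73 ± 0.0704. Its exon mean in shCTRL was under the entry limit of 1 RPKM, so E2f2 entered only through shBmal1, the line where it is higher. Gpr157, an orphan receptor, and Cmss1 each stood at 0.73, Entpd6, a nucleoside diphosphatase, at 0.70 and Plcxd2 at 0.68. Exons of Gpr157 ran from 0.755 to 1.16 RPKM in shCTRL, with a mean just under the same limit. Gpr157 thus also entered only through shBmal1, the line where it is higher. For Cmss1 the call was lost on 24 to 34 h alone (0.63, limma adjusted p = 0.0508, range over 23 alternatives 7.18e-06 to 0.0508). The predicted genes Gm39318 (0.88 ± 0.0819) and Gm14798 (0.85 ± 0.103) also stood here.

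**Figure D3:**
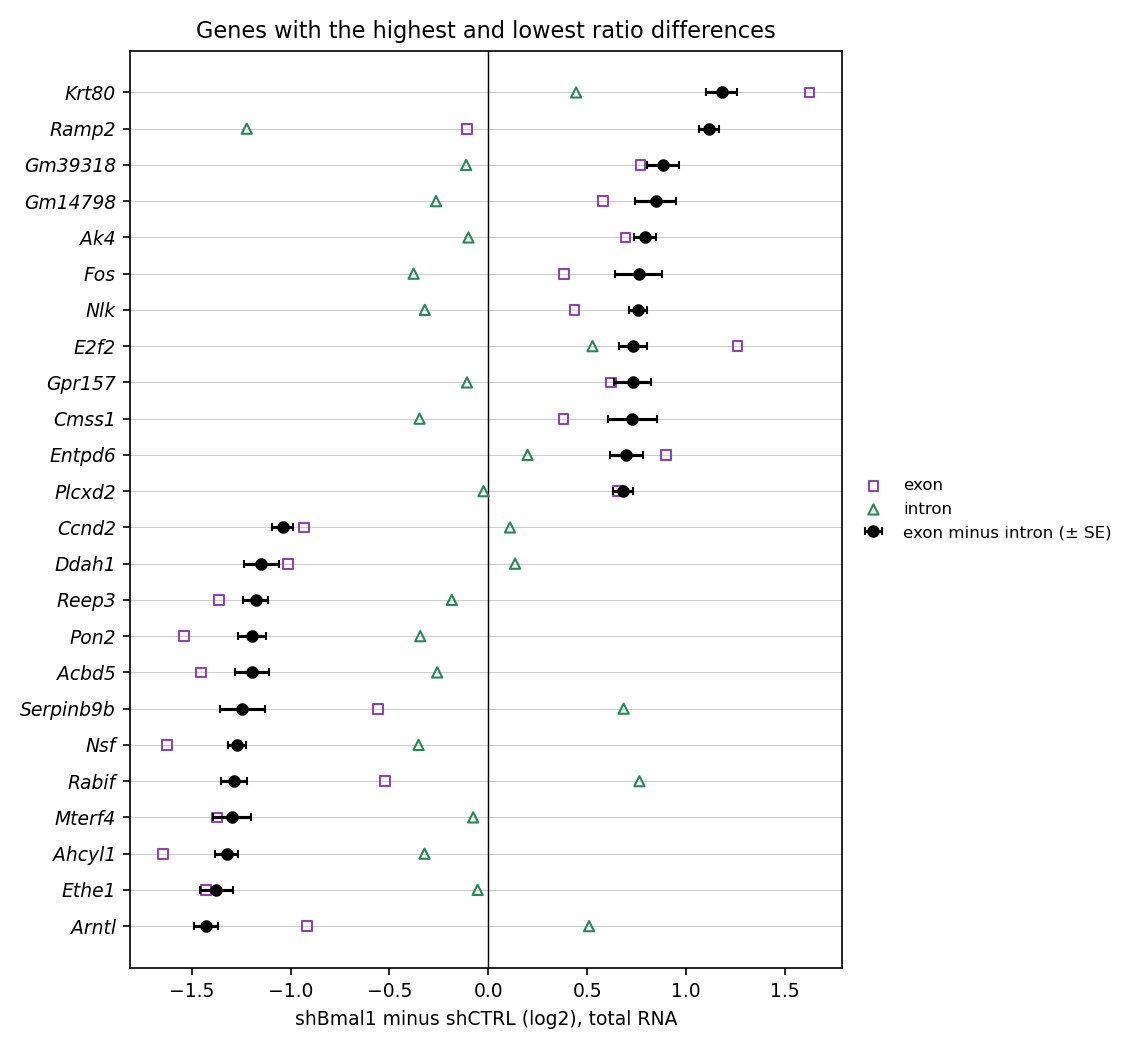
The ratio difference (filled circles, ± SE), exon difference (squares) and intron difference (triangles) of shBmal1 minus shCTRL on the log2 scale are shown for the 12 highest and 12 lowest genes with 1 length and the same direction at every time point. Ratio differences run from 1.18 for Krt80 to -1.43 for Arntl, and the triangles of most of the lower 12 lie nearer to 0 than their squares.

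The called genes with 1 length were sorted by which layer moved. Among all genes with 1 length, exons were called higher in 4.1% and lower in 7.71%, and introns higher in 3.44% and lower in 3.62%. In 18 higher and 40 lower genes the exons were called and the intron difference did not pass. The 5 largest of these were Ethe1, Mterf4, Ccnd2, Rrm2b and Dynlt3. Rrm2b, a p53-inducible subunit of ribonucleotide reductase, had exons of 0.786 ± 0.236 RPKM in shBmal1 and 1.63 ± 0.267 RPKM in shCTRL (SD, n = 12 each) and introns at -0.06, for a ratio difference of -0.95 ± 0.0887. Its exon mean in shBmal1 was under the entry limit of 1 RPKM, so Rrm2b entered only through shCTRL, the line where it is higher. Dynlt3, a dynein light chain, had a ratio difference of -0.94 ± 0.119.

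In 1 higher and 4 lower genes the introns were called and the exon difference did not pass. Hmgb1, a chromatin protein that also acts as an alarm signal outside cells, had introns of 0.384 ± 0.0174 RPKM in shBmal1 and 0.258 ± 0.0231 RPKM in shCTRL, and exons of 6.83 ± 0.756 RPKM in shBmal1 and 7.36 ± 0.809 RPKM in shCTRL (SD, n = 12 each). Its ratio difference was -0.65 ± 0.0738 (limma adjusted p = 1.47e-06). The recovered intron length of Hmgb1, 135012 bases, exceeds its annotated gene, chromosome 5 from 149046702 to 149053057, so its intron values are uncertain. The recovered introns were longer than the whole annotated gene in 2 of 57 higher, 5 of 143 lower and 371 of 8149 of all genes with 1 length and a position. Cdsn, the cell adhesion protein corneodesmosin, had a ratio difference of -0.82 ± 0.134 and Gm50253, a predicted gene, one of -0.71 ± 0.0464. Trim30a, a TRIM-family gene, had a ratio difference of -0.83 ± 0.177, with introns of 0.285 to 0.899 RPKM in shBmal1 and 0.0993 to 0.936 RPKM in shCTRL. On 24 to 34 h alone the difference of Trim30a was -0.48 (limma adjusted p = 0.454, range over 23 alternatives 1.55e-05 to 0.454). Clec11a, a secreted growth factor, was the higher one at 0.57 ± 0.187 (limma adjusted p = 0.0218). Its ratio was higher in 7 of the 12 pairs of libraries, with 6 to 23 intron reads per shBmal1 library and 13 to 38 per shCTRL library, and it lost its call in 8 of 22 alternatives (limma adjusted p from 0.00729 to 0.457).

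In 26 higher and 20 lower genes both layers passed in opposite directions. The largest, Gm11646 at 1.58 ± 0.399, rests on introns of 305 bases with 0 to 5 reads per shBmal1 library and 1 to 12 per shCTRL library, and it did not pass on 36 to 46 h alone (limma adjusted p = 0.146, range over 22 alternatives 0.00135 to 0.146). The next were Arntl, Rabif, Serpinb9b and Ddah1. The other 18 higher and 85 lower genes fell in none of these classes. Both layers passed in the same direction in 13 of the higher and 76 of the lower, with the exon difference the larger in 12 and 75 of them. Over the lower genes of this last class the median exon difference was -0.93 and the median intron difference -0.26.

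The lengths of the called genes are given as a description, with no test. Median summed exon length was 2364 bases in the 63 higher genes and 4169 bases in the 149 lower genes, against 2996.5 bases in all genes with 1 length. Median summed intron length was 19991 and 39656 bases, against 17840.5 bases. The exon difference was larger than the intron difference in 77.8% of the higher and 89.3% of the lower genes, against 58.5% of all. Another annotated gene overlapped 49.1% of the higher and 53.8% of the lower genes with a position in the annotation, against 47.9% of all. Library preparation was strand-specific per the labels' protocols, but the sources used here do not give the strand setting of the counting, so reads of a gene and of an overlapping partner cannot be told apart.

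The 4sU libraries gave the same measure in newly made RNA from the same cultures. After scaling, 119 genes were called higher (1.25%) and 175 lower (1.84%) in it. On RPKM as deposited the counts were 5210 and 38, with a median difference of 0.52 over all genes. The deposited intron RPKM of the 12 shBmal1 4sU libraries were computed on a read total 1.348 to 1.394 times that of their exon RPKM, whereas both totals were equal in the shCTRL 4sU libraries and in all total RNA libraries. With the introns put on the exon total, an alternative chosen after seeing the data, the counts were 199 higher and 106 lower and the median 0.08. On that total introns took a median of 32.1% of reads in shBmal1 and 34.1% in shCTRL. Scaling of each layer by itself removes this factor, and the 4sU differences below are on that scale, relative to the middle of all genes. Arntl had a ratio difference of -1.29 ± 0.0562 in 4sU RNA, against -1.43 in total RNA. Of the 137 lower genes whose lengths were also equal in the 4sU tables, 133 were lower in 4sU RNA as well (97.1%, against 20.9% of all 7761 such genes) and 0 were higher. Of the 60 higher genes, 51 were higher in 4sU RNA (85.0%, against 15.4%) and 0 were lower. The median difference in 4sU RNA was -0.47 for the lower genes and 0.40 for the higher genes, which were chosen by their size in total RNA, so the sizes in the 2 kinds of RNA are not compared. Both measures come from the same cultures and lines, so they are 2 readings of 1 comparison.

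The 4sU exon level minus the total exon level compares newly made with accumulated mRNA, and it shares the total exon values with the ratio. It was higher in shBmal1 for 101 of the 137 lower genes and lower for 0, with a median of 0.28, against 0.01 over all 7761 genes, of which 16.5% passed higher and 12.6% lower. For the 60 higher genes it was lower in 24 and higher in 0, with a median of -0.12. Ahcyl1, Nsf and Ccnd2 had 4sU minus total exon differences of 0.81 ± 0.0496, 0.82 ± 0.0363 and 0.79 ± 0.0348 (SE). Arntl and Rabif stood at 0.20 and 0.16, and Ramp2 at 0.06, which did not pass. Because the total exon level enters both measures with opposite weight, these values are given side by side only.

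Among 16 measured core clock genes, all with 1 length, 3 were called lower and 0 higher. Over all 9522 genes 2.81% were called lower and 1.61% higher. Without the size limit 4 passed higher and 6 lower, and 16.2% of all 9522 genes passed higher and 26.2% lower. The median difference of the 16 was -0.08, against -0.03 over all genes. The exons of 11 of the 16 fell, and the introns of 8, where over all genes exons rose in 35.9% and fell in 32.6% and introns rose in 30% and fell in 27.1%. The 3 called genes were Arntl, Nr1d1 and Clock.

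Nr1d1, the gene of the repressor REV-ERB alpha, was called after Arntl. Its ratio had a lowest, median and highest value of 1.83, 2.25 and 2.70 over the shBmal1 libraries and 2.23, 3.27 and 4.27 over the shCTRL libraries, which overlap. Exons averaged 19.4 ± 5.67 RPKM in shBmal1 and 72.0 ± 51.6 RPKM in shCTRL, and introns 3.90 ± 0.511 RPKM in shBmal1 and 5.93 ± 1.6 RPKM in shCTRL (SD, n = 12 each). The ratio difference was -0.995 ± 0.0464 (limma adjusted p = 3.21e-12), from exons at -1.56 and introns at -0.56. On 24 to 34 h alone it was -0.69 and did not pass (limma adjusted p = 0.190, range over 24 alternatives 1.09e-12 to 0.190). That fit had no time terms, so movement of the ratio over these hours counted as spread. The gene overlaps Thra on chromosome 11.

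Clock, the partner of BMAL1, had exons of 1.68 ± 0.277 RPKM in shBmal1 and 2.20 ± 0.42 RPKM in shCTRL, and introns of 0.622 ± 0.0383 RPKM in shBmal1 and 0.520 ± 0.0286 RPKM in shCTRL (SD, n = 12 each). Its ratio difference was -0.61 ± 0.0752 (limma adjusted p = 3.72e-06), lower at 12 of 12 time points. Like Arntl it had lower exons (-0.36) and higher introns (0.25) on average over the course.

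Per3, Nr1d2 and Rora showed large falls in both layers with ratios near the middle of all genes. Per3, a period gene, had exons of 1.61 ± 0.384 RPKM in shBmal1 and 4.56 ± 2.47 RPKM in shCTRL, and introns of 0.134 ± 0.0289 RPKM in shBmal1 and 0.346 ± 0.166 RPKM in shCTRL (SD, n = 12 each). Its exon difference was -1.29, its intron difference -1.13 and its ratio difference -0.15 ± 0.0516 (limma adjusted p = 0.0223), and the last did not pass in 12 of 23 alternatives (limma adjusted p from 2.96e-05 to 0.408). Nr1d2, which encodes REV-ERB beta, had exons at -1.68 and introns at -1.54, and Rora, an activator that binds the same core as the REV-ERBs, had exons at -1.19 and introns at -1.06. Their ratio differences of -0.14 and -0.12 did not pass. Each passed lower in at least 1 of 23 alternatives, with limma adjusted p from 0.0183 to 0.684 for Nr1d2 and from 0.000532 to 0.762 for Rora. Introns of Rora ran from 0.0575 to 0.106 RPKM in shBmal1, with a mean under the entry limit of 0.1 RPKM, so Rora entered only through shCTRL. Cry1, a cryptochrome that represses CLOCK and BMAL1, had both layers at 0.67 and a ratio difference of -0.00 ± 0.0631. Dbp, the D-box activator listed among the clock outputs, had exons at -1.31, introns at -1.03 and a ratio difference of -0.27 ± 0.049.

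The promoter of Per3 is shown for its copies of the D-box. Whether these copies or Dbp had a part in the Per3 levels was not tested, and a match is not a shown binding site. The D-box TTATGTAA, searched on both strands of the same RefSeq windows, was in 0.938% of 32851 promoters. Per3 had 2 copies, starting 205 and 158 bases before its start at 151044665, in capitals at chr4:151044796-151044885 (GRCm38.p6, minus strand, read 5′ to 3′ along the gene).
Per3: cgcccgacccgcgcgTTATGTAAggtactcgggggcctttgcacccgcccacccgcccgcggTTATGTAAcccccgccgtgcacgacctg

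The other clock genes differed less. Per2 (0.33 ± 0.0442), Cry2 (0.27 ± 0.0409), the kinase gene Csnk1e (0.20 ± 0.0479) and Per1 (0.17 ± 0.042) had higher ratios, and the ubiquitin ligase gene Btrc (-0.20 ± 0.0515) a lower one. Per2 was higher at 10 of 12 time points, with ratios of 3.93 to 4.32 in shBmal1 and 3.43 to 4.24 in shCTRL. Cry2 was higher at 12 of 12. The fit on 24 to 34 h alone had no time terms, so movement over these hours counted as spread. In it none of these 5 passed, with 0.17 for Per2 (limma adjusted p = 0.158, range over 23 alternatives 9.92e-07 to 0.158) and 0.18 for Cry2 (limma adjusted p = 0.0508, range over 24 alternatives 8.64e-06 to 0.0508). There Per1 had a limma adjusted p of 0.624 (range 3.53e-05 to 0.624), Csnk1e one of 0.166 (range 8.35e-05 to 0.166) and Btrc one of 0.108. Btrc also did not pass on 36 to 46 h alone or as deposited (range 0.0032 to 0.135). The ratios of Bhlhe40 and Bhlhe41, which encode E-box repressors, and of the kinase gene Csnk1d differed by -0.03, 0.12 and -0.03 and did not pass. On RPKM as deposited Csnk1d passed higher, at 0.07 (limma adjusted p = 0.0106).

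**Figure D4:**
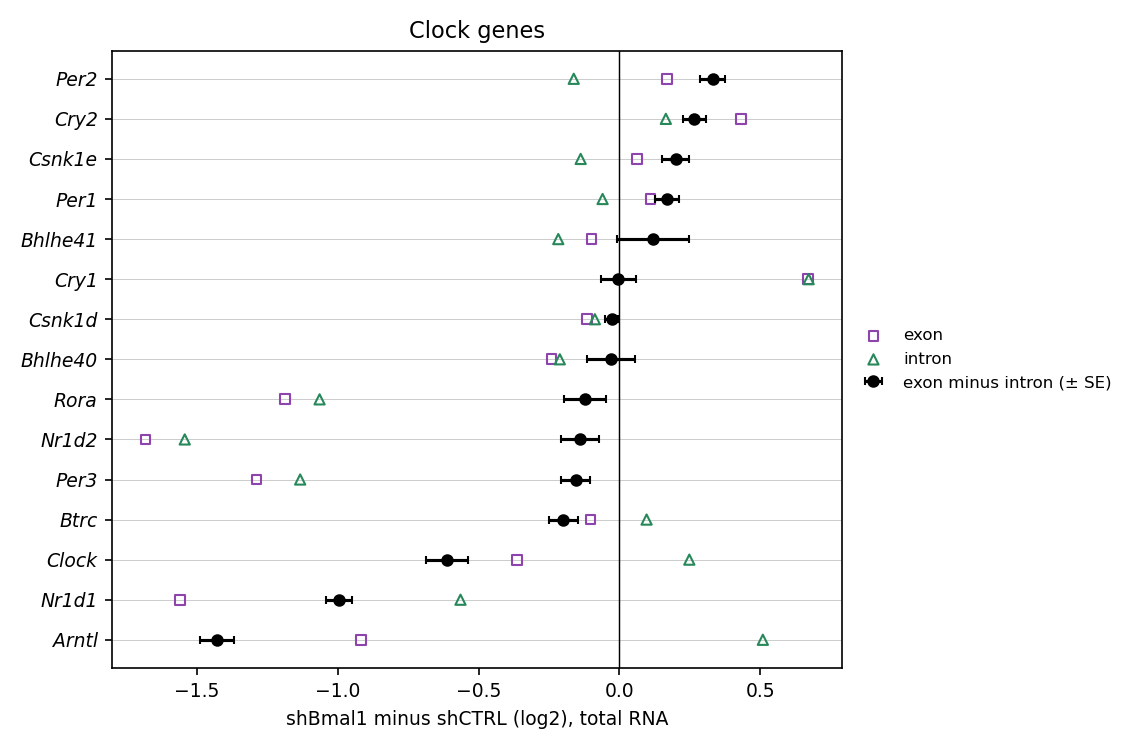
The ratio difference (filled circles, ± SE), exon difference (squares) and intron difference (triangles) of shBmal1 minus shCTRL on the log2 scale are shown for 15 of the clock genes. Arntl, Nr1d1 and Clock stand below -0.5, while the squares and triangles of Nr1d2, Per3, Rora and Cry1 lie side by side away from 0.

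The ratio of Nr1d1 also depended on time. In shBmal1 it went through 2.69, 2.55, 2.01, 2.12, 1.93, 1.96, 1.84, 1.83, 2.39, 2.56, 2.70 and 2.69 in order of time, and in shCTRL through 4.1, 3.68, 2.87, 2.23, 2.25, 2.28, 2.74, 2.95, 3.60, 3.98, 4.27 and 4.25. The lines were thus closest from 30 to 34 h and furthest apart at 44 and 46 h. The fitted 24-h amplitude of the ratio, its height above the mean in log2 units, was 0.45 with a peak at 45.9 h in shBmal1 (limma adjusted p = 0.000634) and 1.07 with a peak at 44.8 h in shCTRL (limma adjusted p = 3.89e-10). The time courses differed between the lines (limma adjusted p = 0.00265), and this passed in 19 of 19 alternatives that test it (0.000924 to 0.0367). Exons of Nr1d1 ran from 12.2 to 28.1 RPKM in shBmal1 and from 18.3 to 151 RPKM in shCTRL.

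The ratio of Arntl had an amplitude of 0.15 in shBmal1, which did not pass (limma adjusted p = 0.366), and of 0.59 with a peak at 38.2 h in shCTRL, which passed (limma adjusted p = 0.000301). The difference between these courses did not pass (limma adjusted p = 0.132). Per2 had an amplitude of 0.08 in shBmal1, which did not pass (limma adjusted p = 0.551), and of 0.31 with a peak at 27.4 h in shCTRL, which passed (limma adjusted p = 0.0101). That rhythm of Per2 passed in 16 of 19 alternatives (range 2.52e-05 to 0.125), and not with a linear time term (limma adjusted p = 0.125), without 38 h (0.0864) or without 40 h (0.0751). Its courses did not pass as different (limma adjusted p = 0.132). A 24-h rhythm passed in 20 genes in shBmal1 (0.21%) and in 15 in shCTRL (0.158%), and the time courses differed in 4 (0.042%), namely Nr1d1, CT010467.2, Acp4 and Ifrd1. These counts were unstable when 1 time point was left out, and ran from 1 to 67 genes in shBmal1 and from 7 to 32 in shCTRL. Without 26 h, whose shBmal1 library had the highest median ratio, the counts were 1 in shBmal1, 11 in shCTRL and 1 for the difference.

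The counts for gene lists cover all tested members, those with 2 lengths included, and stand beside 16.2% higher and 26.2% lower over all genes, with a median of -0.03. Of 14 measured clock outputs, 0 passed higher and 5 lower, with a median of -0.06, and of the 12 with 1 length 0 and 3, with a median of -0.02. They included Klf10, a TGF-beta responsive zinc finger gene, at -0.12 ± 0.0233 with exons at 0.27 and introns at 0.39. Nampt, of NAD synthesis, at -0.66, had 2 lengths and is uncertain. Of 20 immediate early genes, 7 passed higher and 2 lower, with a median of 0.09. Beside Fos they included the antiproliferative gene Btg2, whose exons averaged 18.4 ± 3.12 RPKM in shBmal1 and 6.63 ± 0.756 RPKM in shCTRL and introns 4.44 ± 1.27 RPKM in shBmal1 and 2.49 ± 0.602 RPKM in shCTRL (SD, n = 12 each), with a ratio difference of 0.64 ± 0.0661. The AP-1 genes Fosl1 and Fosl2 stood at 0.36 ± 0.0519 and 0.22 ± 0.0322, and the phosphatase gene Dusp1 at -0.26 ± 0.0348, whose recovered introns of 54729 bases also exceed its annotated gene. Of 17 transcripts listed for AU-rich decay elements, 4 passed higher and 4 lower, among them Ccnd2, Hmgb1 and the survival gene Mcl1 at -0.28 ± 0.0425, while Plaur at 0.87 had 2 lengths.

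Genes of mRNA decay itself had 5 of 49 members higher and 17 lower, with a median of -0.06, and of the 41 with 1 length 3 higher and 13 lower. Ago2, the slicing Argonaute of small-RNA silencing, had exons of 20.1 ± 1.56 RPKM in shBmal1 and 34.3 ± 1.71 RPKM in shCTRL, and introns of 0.778 ± 0.0496 RPKM in shBmal1 and 0.873 ± 0.0233 RPKM in shCTRL (SD, n = 12 each). Its ratios ran from 4.53 to 4.80 in shBmal1 and from 5.16 to 5.39 in shCTRL, and differed by -0.61 ± 0.0305 (limma adjusted p = 9.52e-12). Of the 2 TOB genes, whose products recruit the CCR4-NOT deadenylase, Tob2 stood at -0.53 ± 0.044 with introns at -0.00, and Tob1 at 0.34 ± 0.044. Cnot10, a CCR4-NOT subunit, at 0.69, had 2 lengths. Of 14 nonsense-mediated decay factors 0 passed higher and 5 lower, among them the exon junction proteins Rnps1 (-0.52 ± 0.0579) and Eif4a3 (-0.16 ± 0.0351), the kinase Smg1 (-0.25 ± 0.0556) and the helicase Upf1 (-0.15 ± 0.0382).

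Of 28 SR splicing factors and CLK kinases, 4 passed higher and 9 lower, with a median of -0.03. The splicing activator Tra2a stood at 0.48 ± 0.0666 with exons at 0.17 and introns at -0.31, and the splicing factor Rbm39 and the kinase Clk4 at -0.21 ± 0.0249 and -0.28 ± 0.0578. Of 13 snoRNA host genes 2 passed higher and 4 lower, with Snhg8 at 0.35 ± 0.0804 and Gas5 at -0.10 ± 0.0237, although exons of 9 and introns of 9 rose. Of 3 measured nuclear noncoding RNAs, Airn stood at 0.25 ± 0.0589 and Firre at -0.19 ± 0.0448.

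Most cytosolic ribosomal protein genes rose in both layers, and more of their ratios passed lower than higher. Of 63 measured, exons of 56 and introns of 59 rose, with medians of 0.29 and 0.36, while the ratio passed higher in 4 and lower in 27, with a median of -0.08. Among the lower ones, Rpl36 stood at -0.27 ± 0.036 and Rpl4 at -0.16 ± 0.0234. Many ribosomal protein genes have processed pseudogenes that can share their exon reads. Of 33 translation factors 3 passed higher and 17 lower, with Eif5 at -0.35 ± 0.0474, Eif3c at -0.22 ± 0.0292 and Eef1g at 0.33 ± 0.047. Of 67 oxidative phosphorylation genes 17 passed higher and 14 lower, with a median of 0.02, and of the 58 with 1 length 13 and 12, with a median of -0.01. Among the lower ones, Ndufa4, a subunit of the respiratory chain, stood at -0.58 ± 0.0495, with exons of 21.4 RPKM in shBmal1 and 45.8 RPKM in shCTRL. Uqcrh, of complex III, was also lower, at -0.40 ± 0.0493. The members that passed higher are not described here.

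Most genes of the cell cycle lists rose in both layers. Of 22 G2/M genes, exons of 14 and introns of 19 rose, with medians of 0.31 and 0.41, and the ratio passed higher in 3 and lower in 8, with a median of -0.10. Cdk1 stood at 0.23 ± 0.0237. Mki67, the proliferation marker, went the other way, with exons of 4.24 ± 1.27 RPKM in shBmal1 and 6.64 ± 1.41 RPKM in shCTRL (SD, n = 12 each), introns at -0.07 and a ratio difference of -0.59 ± 0.109 (limma adjusted p = 0.00033). Nusap1, at -0.86, had 2 lengths. Of 26 G1/S genes, exons of 22 and introns of 22 rose, and the ratio passed higher in 2, E2f2 among them, and lower in 4, with Chaf1a at -0.20 ± 0.0305 and Mcm3 at -0.16 ± 0.0429. Of 19 p53 targets 6 passed higher and 6 lower, with a median of -0.00, among them Btg2, Trp53inp1 (0.41 ± 0.0509) and Rrm2b.

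Of 35 matrix genes 6 passed higher and 17 lower, with a median of -0.07. Fn1, fibronectin, fell in both layers, with exons at -0.80 and introns at -0.60, and its ratio differed by -0.20 ± 0.0194. The collagen genes Col4a2 and Col5a1 stood at 0.42 ± 0.0498 and 0.30 ± 0.0357 and Col6a2 at -0.21 ± 0.0251. Pdgfra, a growth factor receptor and fibroblast marker, had exons of 22.005 ± 3.67 RPKM in shBmal1 and 70.5 ± 4.23 RPKM in shCTRL, and introns of 0.909 ± 0.0954 RPKM in shBmal1 and 1.94 ± 0.0862 RPKM in shCTRL (SD, n = 12 each). Its ratio difference was -0.61 ± 0.0385 (limma adjusted p = 3.38e-10), and the lines did not overlap.

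In the actin and SRF list 5 of 21 passed higher and 7 lower. Tmsb4x, thymosin beta 4, had exons of 20.8 ± 2.00 RPKM in shBmal1 and 87.4 ± 3.62 RPKM in shCTRL (SD, n = 12 each), exons at -2.07, introns at -1.11 and a ratio difference of -0.96 ± 0.103 (lower at 11 of 12 time points), on 49 to 116 intron reads per shBmal1 library and 136 to 272 per shCTRL library. Tpm1, tropomyosin, stood at 0.20 ± 0.0244. Of 23 cholesterol synthesis genes 1 passed higher and 12 lower, with a median of -0.10, Hmgcs1 at -0.28 ± 0.0558 and Fdps at -0.14 ± 0.0233. Of 16 ATF4 targets 2 passed higher and 5 lower, with Mthfd2 at -0.55 ± 0.0671 and Slc3a2 at -0.20 ± 0.0271. Of 18 iron and NRF2 genes 3 passed higher and 7 lower, with Ireb2 at -0.31 ± 0.0491, while Txnrd1 (-1.05) and Gclm (-1.02) had 2 lengths. Of 17 selenoprotein genes 1 passed higher and 6 lower, with Selenow at 0.20 ± 0.0337 and Selenoo at -0.22 ± 0.0311. Of 16 glycolysis genes 3 passed higher and 3 lower, with Ldhb at 0.34 ± 0.0603 and Pkm at -0.12 ± 0.026.

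**Figure D5:**
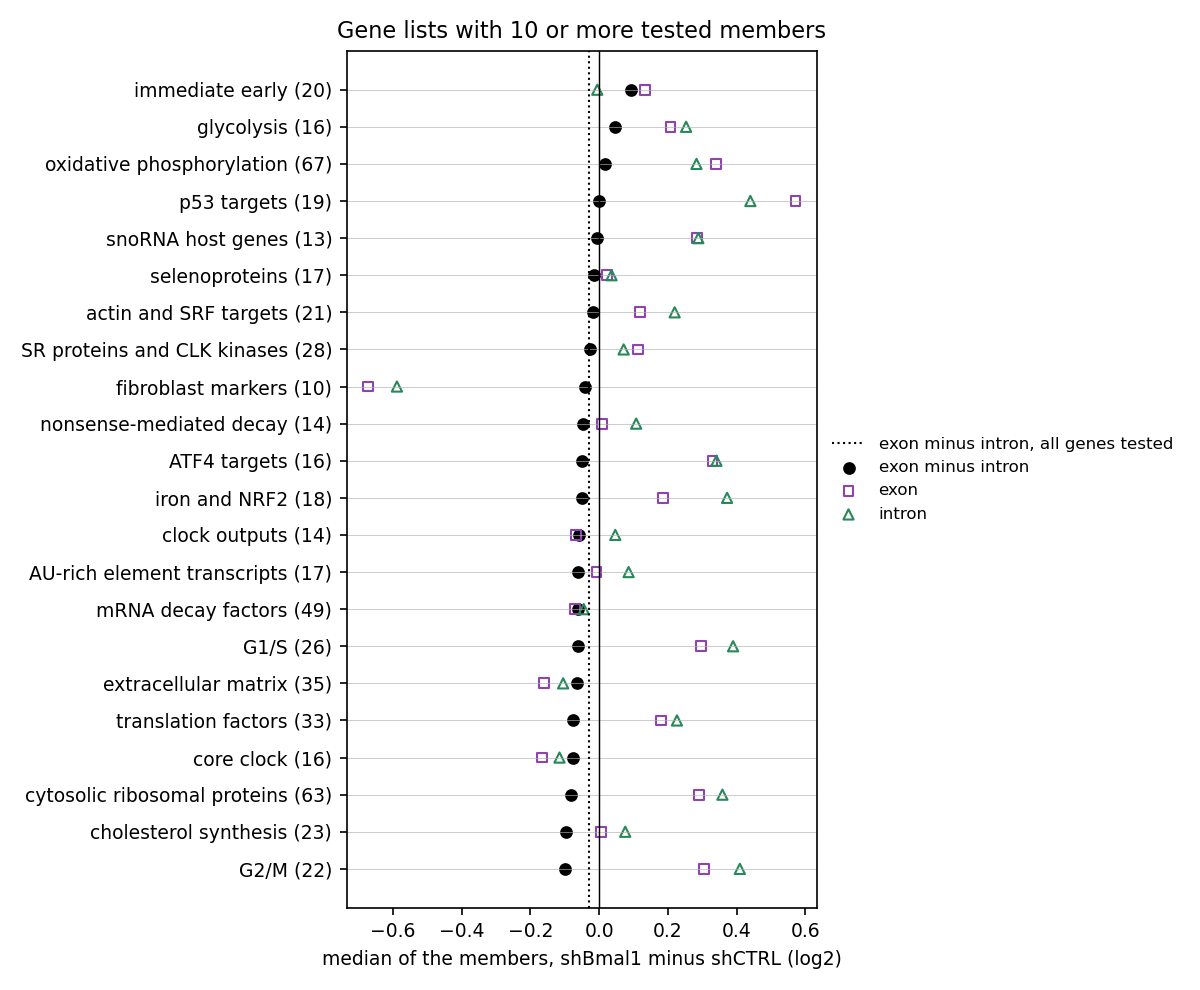
For the 22 gene lists with 10 or more tested members (number in brackets), the median difference of shBmal1 minus shCTRL on the log2 scale is shown for the ratio (filled circles), the exons (squares) and the introns (triangles), with the ratio median of all genes as a dotted line. The ratio medians lie between -0.10 for G2/M and 0.09 for immediate early genes, while exon medians run from -0.67 for fibroblast markers to 0.57 for p53 targets.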

How the data were processed

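The files are tables of RPKM for exons and for introns per gene, deposited by the authors. Per the submitters' processing notes, HOMER 4.11.1 and Trim Galore were used with mm10 (GRCm38.p6). For the aligner, gene models and strand setting, the sources used here say nothing. Read totals and feature lengths given here were recovered from the steps between RPKM values. Exon and intron RPKM were separately brought to a common scale, by each library's median ratio to the geometric mean of all, and 0.1 (exon) or 0.02 (intron) was added before the log2. limma 3.58.1 (R 4.3.3; empirical Bayes, robust, with a variance trend on mean log2 intron level) was fitted over all tested genes with a mean and 24-h and 12-h cosine and sine terms per line, and adjusted over them by Benjamini-Hochberg. The time unit is not stated in the labels and was read as hours. Each time point had 1 library per line, and nothing says that time points came from separate cultures, so p-values measure the spread between these libraries, which may be technical.

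Genes were named by a rule: with 1 length and the same direction at 12 of 12 time points, the 12 highest and 12 lowest differences; the 5 largest in each of 3 classes of layer; all measured core clock genes; up to 4 members with the smallest adjusted p in each of 29 lists; and the genes with the smallest adjusted p for a difference in time course. Not all genes so named are described, and some results are not reported here. The genes, lists and tests were chosen with earlier results of these data known. Of the tested genes, 9073 were found by symbol in the RefSeq table of GRCm38.p6, which gave positions and overlaps. Alternatives were the deposited scale, other pseudocounts and filters, genes with 1 length, other time terms, a time point block, 24 to 34 h and 36 to 46 h alone and each time point left out. The fits on 24 to 34 h and on 36 to 46 h had line means only.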

Additional observations from a re-analysis of the deposited data

Results flagged for a closer look

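The time course of the ratio differed between shBmal1 and shCTRL, by limma's test of the difference itself, for 4 genes. Nr1d1 had an adjusted p of 0.00265 and passed in 19 of 19 alternatives. CT010467.2 and Acp4 each had an adjusted p of 0.037 in limma, and passed in 6 and in 8 of 19 alternatives, with ranges of 0.018 to 0.354 and 0.018 to 0.238. The recovered intron of CT010467.2 was 11 bases long. Ifrd1 had an adjusted p of 0.0482 in limma and passed in 5 of 19, with a range of 0.00395 to 0.5.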

How the results depend on the processing

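On RPKM as deposited, 257 genes had a higher ratio, 754 higher exons, and 31 a rhythmic ratio in shBmal1, while the 4sU ratio was higher in 5210 and lower in 38, or in 199 and 106 with introns on the exon read total (chosen after seeing the data). On RPKM as deposited all 153 higher calls in total RNA were kept, and 189 of the lower ones. The stricter filter gave 56 higher and 117 lower ratios, 214 and 295 exon calls, 261 and 191 intron calls, and 8 rhythmic ratios in shCTRL, with fewer genes tested. Genes with 1 length gave 63 higher and 149 lower ratios, 33 and 86 in 4sU RNA, and 23 and 12 for 4sU minus total exons. Larger pseudocounts gave 32 rhythmic ratios in shCTRL. The difference in time course was called in 2 genes with the ordinary variance trend and in 1 with a linear time term, which left 1 rhythmic ratio in shBmal1. The causes were not tested. With 1 time point left out, ratio calls ran from 151 to 164 higher and from 257 to 288 lower, exon calls from 419 to 480 and from 697 to 796, intron calls from 337 to 445 and from 347 to 363, differences in time course from 1 to 6, and rhythmic ratios from 1 to 67 in shBmal1 and from 7 to 32 in shCTRL.

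With the time point as a replicate block, 152 ratios were higher and 268 lower, of which 152 and 267 were shared calls. Same-time deviations correlated from -0.0756 to 0.216 and matched best for 1 time point, so the numbers do not pair the libraries. An alternative chosen after seeing the data, at least 50 intron reads on average in each line, gave 145 higher and 257 lower. Of 104 named genes followed, 98 passed and 65 passed in every alternative run. Cry1, Bhlhe40 and Csnk1d, which did not pass in the main setting, changed sign on the deposited scale (0.0881, 0.0652 and 0.0673). Cry1 also changed sign with larger pseudocounts (0.21) and on 36 to 46 h (0.19). Csnk1d passed higher on the deposited scale (limma adjusted p = 0.0106). Cry1 passed in at least 1 alternative with a changed sign (lowest limma adjusted p = 0.00276). Bhlhe40 passed in none (lowest limma adjusted p = 0.354). With 1 time point left out, Cry1 ran from -0.0369 to 0.0330 and Bhlhe40 from -0.103 to 0.0138. Low intron counts limit genes with short introns, such as Fos and Gm11646.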
